A study of Mus musculus with 4 samples.

Results

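Accessible chromatin was mapped by ATAC-seq, in which a transposase cuts and tags open DNA, in natural killer (NK) cells from the spleen of wild-type C57BL/6 mice, and 6 genes that carry the most regions of the authors' up list are described here: Myo10, Pard3, Adgrl2, Arnt2, Kcnj16 and Slc25a24. The cells were cultured for 72 h in interleukin-15, the cytokine that keeps NK cells alive, at a dose labelled high (HD IL-15) or low (LD IL-15), with 2 samples of each dose and about 75000 cells per sample. The concentrations, the number of mice behind a sample and the dose that served as reference for "up" are not given in the sources used here. The up list is therefore not assigned to either dose. The tables hold positions only, without values for single samples, fold changes or p-values, so that depth is unknown, replicate spread could not be measured and no test between the doses was possible.

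Each of the 91266 accessible regions was given to the protein-coding gene whose span (from its first to its last annotated base) was closest, and 186 regions went to the 6 genes. Of these 186 regions, 50 were in the up list, 0 in the down list and 136 in neither. Up regions were thus 26.9% of the regions of the 6 genes, against 4.21% of all regions. This excess is what the genes were picked for and supports nothing further. Down regions made up 1.40% of all regions, and a count of 0 among 186 allows a share of up to 1.61% (3 counts, counting error only), so that the absence of down regions lies within what the background allows. Of the 16393 genes that received any region, 2636 had at least 1 up region, of which 2 had 9, 4 had 8 and 7 had 7. The genes with 7 up regions, just outside the selection, were Agap1, Ccny, Cdkn2b, Maf, Rgs3, Slc24a3 and Tiam1. The labelled cell type was checked by counting markers with a region within 1 kb of either gene end. All 10 NK cell markers had such a region. So did 4 of 5 T cell (Cd3e, Cd3d, Cd4, Cd5), 2 of 5 B cell (Cd79a, Cd22) and 1 of 5 myeloid markers (Cd14). None lay at the myeloid markers Csf1r, Adgre1, Lyz2 or Mpo. The share of all genes with such a region is not given here, so the check is a rough one.

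Accessible regions away from gene starts often hold enhancers, stretches bound by transcription factors that can act on a promoter over long distances, and several of them along a gene can open together. The gene nearest to such a region need not be the one it acts on. The 6 genes belong to unrelated families. Myo10 encodes an unconventional myosin that travels to the tips of filopodia, and Pard3 encodes a PDZ-domain scaffold of the PAR complex that sets up cell polarity. Adgrl2 encodes a latrophilin, an adhesion receptor coupled to G proteins. Arnt2 encodes a bHLH-PAS transcription factor that pairs with partners of the same family. Kcnj16 encodes an inwardly rectifying potassium channel subunit, and Slc25a24 encodes a calcium-regulated carrier that exchanges ATP-Mg and phosphate across the inner mitochondrial membrane.

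The start sites are shown first, because the 6 genes differed in whether their own starts were accessible, while no up region lay at any of them. The windows below are the 250 bases before a RefSeq start (GRCm38.p6, the assembly that mm10 names), chosen from the 3 genes whose window ends at the edge of the gene span. Capitals mark matches to any of 7 short motifs searched on both strands: STAT (TTCNNNGAA), AP-1 (TGANTCA), RUNX (TGTGGT), ETS (AGGAAGT), T-box (AGGTGTGA), NR4A (AAAGGTCA) and bHLH-PAS (GCGTG).
Myo10, chr15:25622300-25622549, + strand: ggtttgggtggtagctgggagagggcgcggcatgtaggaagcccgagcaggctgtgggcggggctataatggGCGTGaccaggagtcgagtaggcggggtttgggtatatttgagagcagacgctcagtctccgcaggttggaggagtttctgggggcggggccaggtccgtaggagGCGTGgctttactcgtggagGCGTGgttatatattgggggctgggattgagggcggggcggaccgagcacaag
Slc25a24, chr3:109122899-109123148, + strand: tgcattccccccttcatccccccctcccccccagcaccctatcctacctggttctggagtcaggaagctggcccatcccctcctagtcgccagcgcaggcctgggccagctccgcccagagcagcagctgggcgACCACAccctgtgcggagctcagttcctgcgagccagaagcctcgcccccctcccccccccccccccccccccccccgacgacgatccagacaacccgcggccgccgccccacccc
Kcnj16, chr11:110967783-110968032, + strand: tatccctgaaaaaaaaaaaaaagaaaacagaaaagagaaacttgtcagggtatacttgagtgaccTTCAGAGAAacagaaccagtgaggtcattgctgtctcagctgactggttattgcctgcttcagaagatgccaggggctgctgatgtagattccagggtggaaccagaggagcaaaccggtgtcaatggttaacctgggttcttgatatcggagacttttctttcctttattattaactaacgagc

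The Myo10 window, with 62.8% G or C and 17 CpG pairs, lay in an unlisted region of 1523 bp. The Slc25a24 window (72.8% G or C, 14 CpG) likewise lay in an unlisted region, of 1844 bp. At Kcnj16 the window had 42.8% G or C and 3 CpG, and no accessible region touched it or the windows of the 3 other RefSeq starts of the gene. The first Pard3 window (79.2% G or C, 34 CpG) was not touched by a region either, and the nearest region lay 11.4 kb from that start. The Arnt2 window (75.6% G or C, 31 CpG) overlapped an unlisted region of 665 bp. The only Adgrl2 window in the sequence table belongs to a start inside the gene span and held no region, although an unlisted region of 1094 bp lay over the 5′ edge of the span. For comparison, the median over 21263 windows of protein-coding genes was 55.6% G or C and 10 CpG. A region of any kind overlapped 53.7% of these windows, and an up region overlapped 71 of them (0.334%).

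Motif matches in the printed windows were few. The Myo10 window held 3 matches to GCGTG, which 33.8% of all windows match at least once. In the Slc25a24 window the single match was to the RUNX letters (12.4% of all windows), and in the Kcnj16 window it was to the STAT letters (6.58%). Since no genome sequence was used here, the sequences under the up regions themselves were not searched.

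Numbers of up regions were set beside those of genes with similar numbers of regions, within 20% of the member. Myo10, with 9 up regions of 25 (36.0%, 95% Wilson interval 20.3 to 55.5%), was compared with 503 genes holding 20 to 30 regions, whose median was 1 up region and whose highest count was 7. Pard3 had 9 of 42 (21.4%, 11.7 to 35.9%), and the 138 genes with 34 to 50 regions had a median of 1 and a highest count of 7. The share was lowest at Adgrl2, with 8 of 72 (11.1%, 5.74 to 20.4%). Only 23 genes had 58 to 81 regions, with a median of 2 up regions and a highest count of 6, at Sox5. Shares were highest at the genes with the fewest regions: 8 of 13 at Kcnj16 (61.5%, 35.5 to 82.3%) and 8 of 14 at Slc25a24 (57.1%, 32.6 to 78.6%). Genes of their size mostly had none, with 59.7% of 1002 genes and 59.4% of 844 genes at 0 up regions. Arnt2 had 8 of 20 (40.0%, 21.9 to 61.3%), and 372 of its 702 comparison genes had none. The members were picked for the highest counts and were left out of the comparison sets, so that no comparison gene could reach 8. Their standing above these genes is therefore a description. The intervals treat regions as independent and cover counting error only, not the selection.

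**Figure D1:**
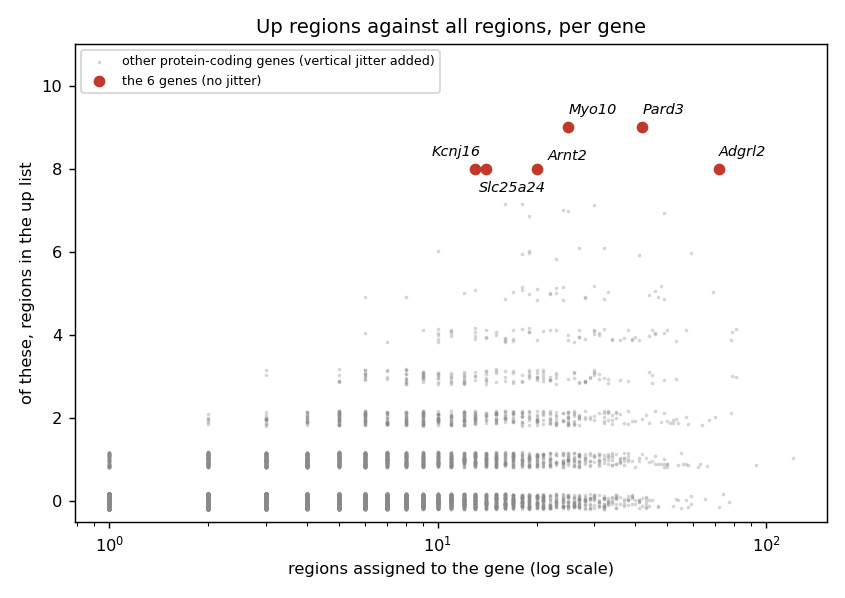
Each point is a protein-coding gene, placed by the number of accessible regions assigned to it (horizontal, log scale) and the number of these in the up list (vertical); grey points are spread slightly in the vertical direction so that they can be seen. The 6 genes in red stand at 8 or 9 up regions, with between 13 and 72 regions in all, and no other gene exceeds 7.

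Where the up regions lay along the gene differed from member to member. Over the 6 genes, 22 up regions were upstream of the gene span in the direction of transcription, 17 inside it and 11 downstream of it. The inside share was therefore 34.0%, while 59 of the 136 unlisted regions of the same genes were inside. This difference came from Myo10. Without that gene the inside shares of up and unlisted regions were close. Inside lay 49.5% of all up regions and 61.6% of all unlisted regions of the series. By gene, the up regions inside were 0 of 9 at Myo10 (10 of 16 unlisted regions), 4 of 9 at Pard3 (23 of 33), 3 of 8 at Adgrl2 (16 of 64) and 7 of 8 at Arnt2 (8 of 12). At Slc25a24 they were 2 of 8 (2 of 6 unlisted) and at Kcnj16 1 of 8 (0 of 5 unlisted). Regions of a gene are not replicates, and with so few of them no direction is read at single genes. Among the 261 other genes with 3 or more up regions, 45.9% of up regions were inside. None of the 50 up regions came within 1 kb of either end of the gene or of a RefSeq start, the nearest being 2.66 kb from the 3′ end of Slc25a24. Of the 136 unlisted regions, 5 were within 1 kb of a gene end. With so few regions at gene ends, the 0 among 50 up regions is not read as a difference. The share of all up regions at gene ends is not given here.

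**Figure D2:**
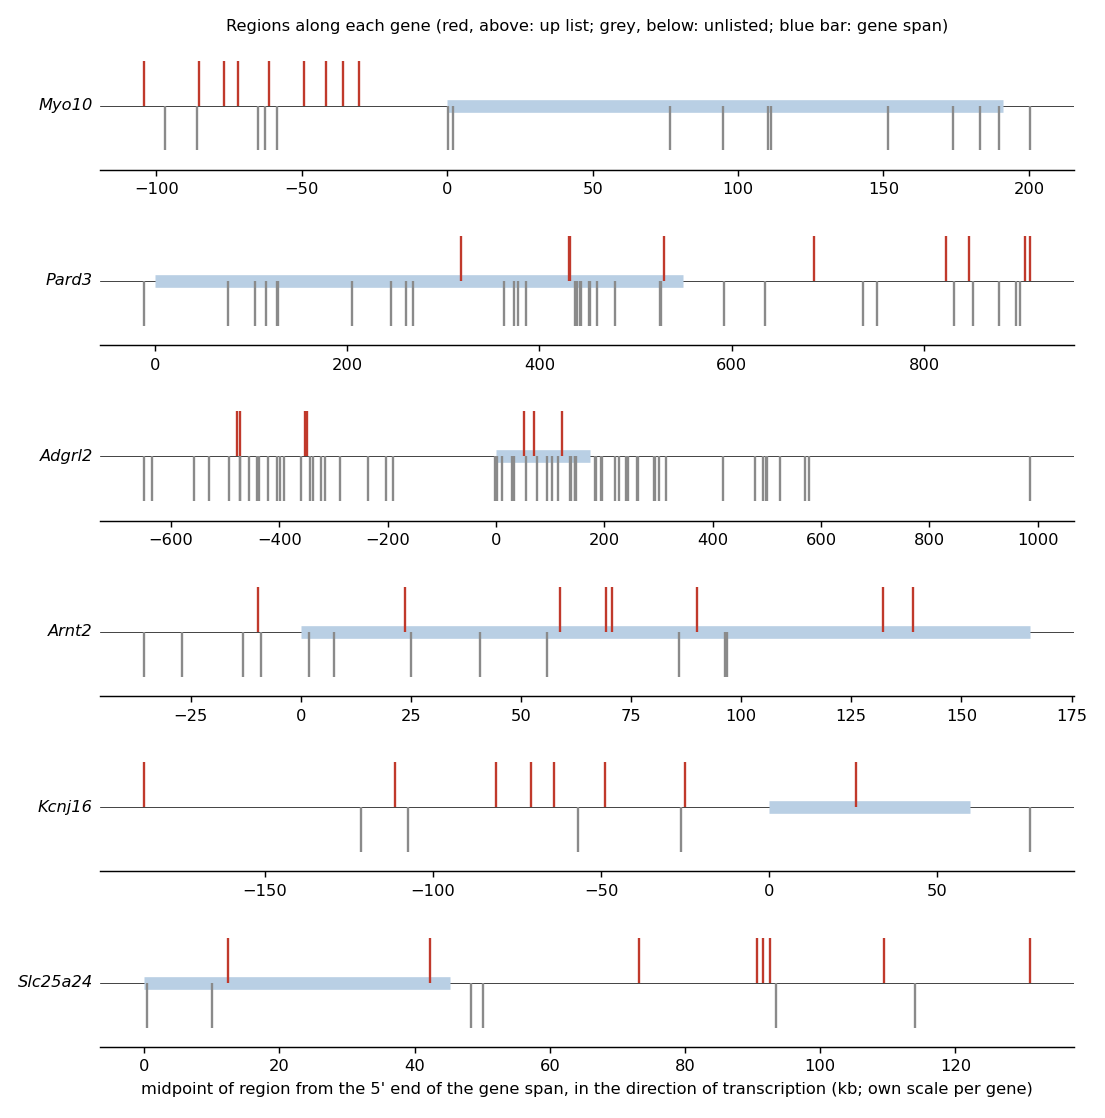
Regions of each gene are drawn along the direction of transcription, by the distance of their midpoint from the 5′ end of the gene span in kb (each gene on its own scale); red ticks above the line are up regions, grey ticks below are unlisted regions and the blue bar is the gene span. Up regions of Myo10, and all but 1 of those of Kcnj16, stand to the left of the gene, those of Arnt2 mostly within it, and those of Slc25a24 and Pard3 within it and to the right.

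Myo10 (chr15:25622550-25813673, + strand) had all 9 of its up regions in the stretch before the gene and none among the 10 regions inside it. Going toward the gene, they lay 104, 85.2, 76.5, 71.8, 61.0, 48.9, 41.4, 35.6 and 30.1 kb from its 5′ end. They filled 74.3 kb in which only 5 unlisted regions were interspersed. In the order of regions along the chromosome, the last 4 up regions before the gene followed each other with no unlisted region between them, and 3 others did so farther out. Between this block and the gene lay 30.1 kb without an up region, and the region over the start was unlisted. Having every up region upstream was shared by 26 of 207 other genes with 3 or more up regions and a known strand.

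The Myo10 block was the largest grouping of up regions in the series when neighbours within 20 kb of each other were joined and gene borders ignored. It held 10 up regions at chr15:25517061-25592420, of which the outermost was nearest to Basp1, the next gene upstream, and 9 to Myo10. The next largest groupings in the series had 7 up regions, and 2777 of the 3845 up regions had no other up region within 20 kb. Basp1, which encodes a membrane-associated protein abundant in nerve endings, had 5 up regions of 28, and the 209 kb between the 2 genes held 11 up regions among 23. On the other side, Retreg1 had 0 up regions of 29.

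Kcnj16 (chr11:110968033-111027968, + strand) had 7 of its 8 up regions upstream, while 1 lay inside. Of its 5 unlisted regions 4 were upstream too, whereas 10 of the 16 unlisted regions of Myo10 were inside that gene. The upstream up regions of Kcnj16 were 185.5, 111, 80.9, 70.4, 63.7, 48.6 and 24.8 kb from the 5′ end. The inside one was centred 25.8 kb into the gene and was the only accessible region of any kind there. A core of 4 up regions stood within 33.3 kb (chr11:110886196-110919481) with 1 unlisted region among them, and included the widest up region of the 6 genes, of 1049 bp. The upstream stretch of 442.5 kb ended at Map2k6, a kinase of the p38 pathway, which had 3 up regions of 21. Kcnj2, an inward rectifier gene of the same family 38.2 kb downstream of Kcnj16, had 2 up regions of 7.

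Arnt2 (chr7:84246274-84411741, - strand) showed the opposite arrangement, with 7 of 8 up regions inside the gene. Their midpoints lay 23.7, 59.0, 69.2, 70.6, 90.1, 132 and 139 kb from the 5′ end of the span, and the remaining up region was 9.62 kb upstream. Inside the gene, 7 of the 15 regions were up and 8 were unlisted, so that both kinds were interleaved along the same 165 kb. The densest part was a grouping of 4 up regions within 31.5 kb (chr7:84321394-84352924) with 1 unlisted region among them. The flanking genes Abhd17c and Gm2115 had no up region among 6 and 2 regions.

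Slc25a24 (chr3:109123149-109168409, + strand) carried 2 up regions inside, centred 12.4 and 42.3 kb from the 5′ end, and 6 beyond its 3′ end. The downstream ones lay 27.7, 45.3, 46.0, 47.2, 64.0 and 85.5 kb past the gene. Of these, 5 formed a grouping of 36.7 kb (chr3:109196087-109232761) that contained 1 unlisted region, and only 3 groupings in the series had more up regions. The first 4 of the 5 were consecutive regions. The 172 kb between Slc25a24 and Vav3 held 8 up regions among 14, of which 6 were nearest to Slc25a24. Vav3 had 4 up regions of 27, and Slc25a54, a related carrier gene 6.57 kb upstream of Slc25a24, had none of 3.

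Pard3 (chr8:127063381-127612286, + strand) had the widest median gap between up regions of the 6 genes, 77.5 kb. The 4 inside lay in the 3′ part of the gene, centred 318, 431, 432 and 529.5 kb from its 5′ end, so that the stretch of the gene before the first of them held 9 unlisted regions and no up region. The other 5 lay 137, 274, 297, 356 and 361 kb past the 3′ end. Only 2 close pairs were present, 1 in the gene with a gap of 0.484 kb and 1 far downstream. The stretch from Pard3 to Nrp1, a semaphorin and VEGF co-receptor gene, was 746 kb long and held 7 up regions among 35. Nrp1 itself had 2 up regions of 57.

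Adgrl2 (chr3:148815586-148989096, - strand) stood in a gene desert, with the next protein-coding genes 1832 kb downstream and 2449 kb upstream. Its up regions were found in 3 places. Inside the gene, 3 were centred 52.0, 70.7 and 121 kb from the 5′ end. Far upstream, 3 consecutive regions lay 349.5, 350.3 and 352.9 kb from the gene within 3.91 kb (chr3:149338586-149342495), and a pair followed at 473.1 and 477.9 kb. The 23 regions on the downstream side were all unlisted. Adgrl4, the relative of Adgrl2 at the far end of the upstream desert, had 1 up region of 20.

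**Figure D3:**
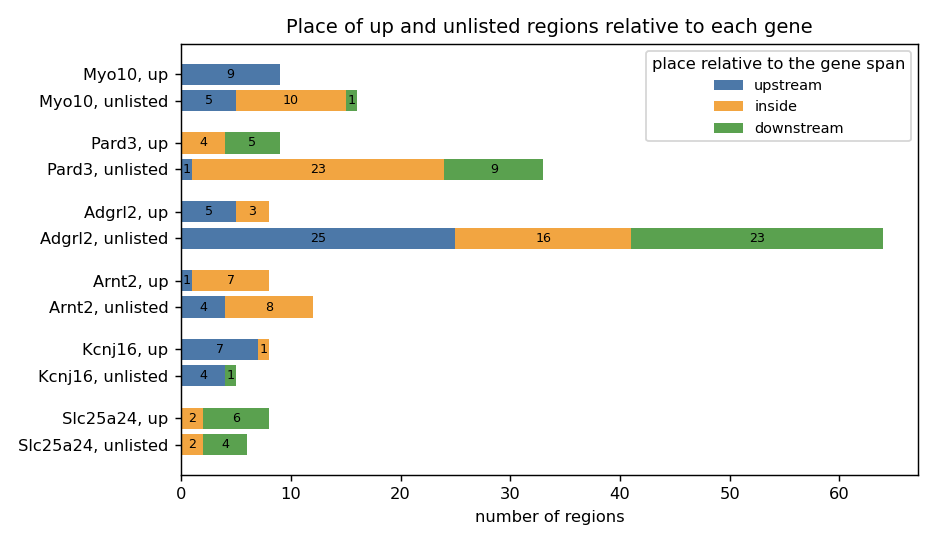
Bars count the up and the unlisted regions of each gene that lie upstream of the gene span, inside it (any overlap) or downstream of it. All 9 up regions of Myo10 are upstream although 10 of its 16 unlisted regions are inside, and 7 of 8 up regions of Arnt2 are inside.

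Spacing was measured as the gap between neighbouring up regions of a gene and set beside genes with similar region counts and at least 3 up regions. The median gap was 7.55 kb at Myo10, against a median of 39.1 kb over 65 such genes, 3 of which had a smaller one. At Adgrl2 it was 18.0 kb, and none of the 7 comparison genes had a smaller one (median 143 kb). The values at Arnt2 (18.9 kb), Kcnj16 (23.2 kb) and Slc25a24 (17.0 kb) were below the medians of their comparison genes (27.2, 29.3 and 30.6 kb), with 24 of 70, 15 of 47 and 12 of 45 genes below them. Pard3 was the exception, at 77.5 kb against 54.6 kb, with 22 of 28 genes below it. A gene with more up regions in the same territory has smaller gaps by arithmetic, and the members were chosen for many, so these ranks are descriptions. The median gap between all neighbouring regions of a member, whatever their list, ran from 5.46 kb at Slc25a24 to 10.6 kb at Pard3.

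**Figure D4:**
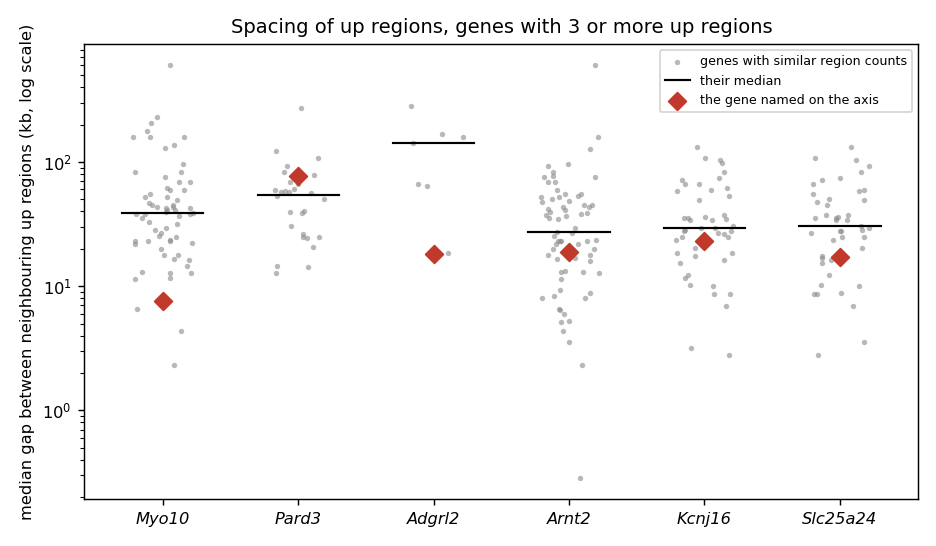
The red diamond is the median gap between neighbouring up regions of each of the 6 genes in kb (log scale); grey points are genes with a number of regions within 20% of it and at least 3 up regions, and the black line is their median. Myo10 at 7.55 kb and Adgrl2 at 18.0 kb stand lowest relative to their comparison genes, and Pard3 at 77.5 kb stands above their median.

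Of the 50 up regions, 35 (70.0%) had another up region of the same gene within 20 kb, against 55.5% in the 261 other genes with 3 or more. Since the members were picked for many up regions, a higher share follows in part from the choice, and the pair of values is a description. The members ranged from 44.4% at Pard3 and 50% at Kcnj16 to 62.5% at Slc25a24, 75% at Arnt2, 87.5% at Adgrl2 and 100% at Myo10. The longest series of consecutive up regions was 4 at Myo10 and Slc25a24, 3 at Adgrl2, Arnt2 and Kcnj16, and 2 at Pard3. Series of 4 or more were seen in 7 of the 261 other genes, of which 148 had exactly 3 up regions and could not hold one. At Myo10, the distance from an up region to the nearest other up region had a median of 5.18 kb, and the distance from an unlisted region to the nearest up region had a median of 116 kb. At Arnt2 the corresponding medians were 8.15 and 6.07 kb, and at Slc25a24 they were 16.7 and 4.80 kb, so that unlisted regions there lay among the up regions.

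Widths moved with list membership and are given beside the counts. Up regions of the 6 genes measured 270 to 1049 bp with a median of 494 bp, and unlisted ones 150 to 1844 bp with a median of 331 bp. None of the 50 up regions was under 250 bp, against 49 of 136 unlisted ones (36.0%). In the whole series 3.30% of up and 25.5% of unlisted regions were that narrow. At Myo10 the narrowest up region was 442 bp, and 10 of 16 unlisted regions were under 250 bp. Slc25a24 differed from the other 5 genes, since its unlisted regions had the larger median, 566 bp against 420 bp. Among regions of 250 bp or wider, 50 of 137 (36.5%) were up at the 6 genes, against 5.38% in the series. This limit removed only unlisted regions of the 6 genes, which were picked for their up regions, so the higher share is a description. The part of width in the authors' calls was not tested.

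**Figure D5:**
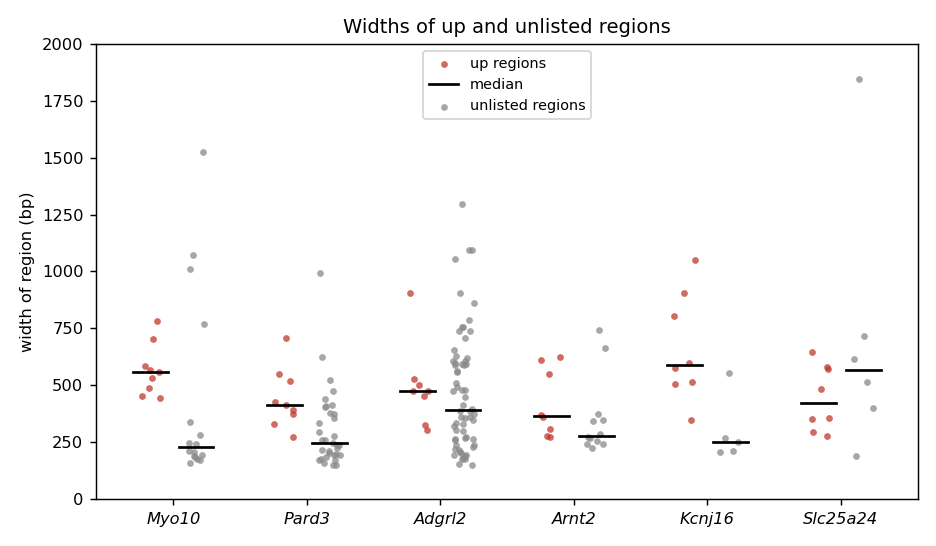
Each point is a region, by gene and list, and the vertical axis is its width in bp; black lines are medians. Up regions (red) all measure 270 bp or more, many unlisted regions (grey) fall below 250 bp, and the widest regions, up to 1844 bp, are unlisted.

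How many up regions a member had depended on the rule that links regions to genes. Counting only regions within a gene or within 10 kb of it left 18 up regions: 8 at Arnt2, 4 at Pard3, 3 at Adgrl2, 2 at Slc25a24, 1 at Kcnj16 and 0 at Myo10. By that rule Arnt2 had more up regions than any other gene, and 14 genes had more than Pard3. Higher counts than at Adgrl2 were found at 54 genes, than at Slc25a24 at 135, than at Kcnj16 at 464 and than at Myo10 at 2265. When noncoding genes and pseudogenes of the RefSeq table also competed, 25 up regions remained with the members. Kcnj16 then kept all 8 and led all genes, Myo10 and Arnt2 had 5 each, Adgrl2 3, and Pard3 and Slc25a24 2 each. Genes with more up regions numbered 8 for Myo10 and for Arnt2, 60 for Adgrl2, and 167 for Pard3 and for Slc25a24. Of the Myo10 block, 4 up regions were then nearest to the long noncoding RNA gene Gm48957. The 6 downstream up regions of Slc25a24 passed to the pseudogene Gm13865, and 5 up regions of Pard3 passed to the long noncoding RNA gene Gm32590. At Adgrl2 the 5 upstream up regions went to A630039O03Rik (2), Gm5149 (2) and Gm30382 (1). Exons and introns were not annotated here.

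Relatives of the 6 genes were counted from family lists. Their shares rest on few up regions each and stand beside the 4.21% of the series. Among 23 other unconventional myosins, 21 had a region and 9 an up region (in the series, 2636 of 16393 genes with a region had one). Of their 213 regions 15 were up (7.04%), led by Myo16 with 4 of 39, while Myo1e, Myo5a and Myo7a had 2 each. Among 8 genes of the PAR polarity group, 8 of 96 regions were up (8.33%), of which 7 were at Tiam1, a Rac exchange factor known to bind the Pard3 protein, and 1 at Cdc42. In the list of latrophilins and their ligands, 5 of 68 regions were up (7.35%), with 2 at the teneurin gene Tenm4. Of 57 regions at other inward rectifier genes 4 were up (7.02%), with 2 at Kcnj2. In a list of 7 other mitochondrial carriers, which did not include Slc25a54, 2 of 28 regions were up (7.14%). Both were at Slc25a13, a calcium-regulated aspartate-glutamate carrier. The bHLH-PAS list had 3 up regions of 117 (2.56%), at Arntl, Ahr and Ahrr, and the only down region of all 6 lists, at Ahrr.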

How the data were processed

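The authors deposited 3 tables for the series as a whole: the accessible regions with chromosome, start, end and width in bp, and the positions listed as up and down between the doses. The submitters' processing notes name the build mm10 and the tools BWA, ArchR, MACS2 and HOMER 4.11.1, without their roles. Pooling of samples before peak calling, the differential test and its threshold are not given in the sources used here. Starts were raised by 1, after which all 3845 up and 1275 down positions were identical to a region. Python 3.11.15 with pandas 2.3.3 was used. Regions were assigned to the nearest of 21900 protein-coding genes of RefSeq GRCm38.p6, with ties going to the nearer gene end; strand came from the RefSeq promoter table, and all 6 genes matched. Assignment and grouping were checked on simulated positions. The planned test of counts between doses could not be run, since the tables hold 0 columns of values per sample, and positions and gaps were described without tests because regions are not replicates. The members and lists were chosen with earlier results of these data known. Named were the 6 genes, those just outside, their coding neighbours, and relatives with at least 2 listed regions; Cdc42, Arntl, Ahr, Ahrr, Sox5, Adgrl4 where it is a relative, and the noncoding genes were named after their values were seen.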

Additional observations from a re-analysis of the deposited data

How the results depend on the processing

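No paired analysis was possible because single samples have no values in these tables. For the same reason the test between doses, other normalizations, leaving out replicates and stricter thresholds were not run. The total of 50 up regions became 18 when regions had to lie within a gene or 10 kb of it, and 25 when noncoding genes competed, by the construction of both rules. It stayed at 50 with the nearest gene end, with any overlap as a match and with regions of 250 bp or wider. The overlap and width rules could drop none of the 50. Every up position was identical to a region, and the narrowest of the 50 measured 270 bp. The share of up regions grouped with another was 54% with gaps up to 10 kb and 90% with gaps up to 50 kb, against 70% with 20 kb. Placing regions by their midpoint left 17 inside. Comparison genes within 10% had a mean of 0.842 up regions, against 0.824 within 20%. Of 48 values for single genes under these alternatives, 35 stayed within 1.5 times (counts) or within the Wilson interval (shares), and 13 did not. The 35 include all values under the overlap and width rules.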

Other observations

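Besides the Myo10 block, only 2 groupings of more than 5 up regions were found in the series when neighbours within 20 kb were joined. One held 7 up regions nearest to Ccny, which encodes a cyclin, with a median gap of 3.57 kb and none of the 7 inside that gene. The other, at chr9:114496496-114527507, held 7 up regions nearest to Ccr4, a chemokine receptor gene, or Trim71. The genes were named after their values were seen.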
